A study of Mus musculus with 16 samples.

Results

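Nucleoside and deoxynucleotide metabolism was examined through 10 genes that set the pools of DNA building blocks and the response to nucleoside analogue drugs: Rrm1, Rrm2, Samhd1, Dck, Tk1, Ada, Cda, Pnp, Nt5c2 and Slc29a1. They were chosen by mouse gene symbol, and 9 of the 10 matched a row among the 41214 genes counted in each library. Expression was measured by RNA sequencing of T cell acute lymphoblastic leukaemia (T-ALL) from C57Bl6 mice, 16 libraries from 8 groups of 2 mice. ICN, the activated intracellular part of Notch, induced the leukaemia in 12 mice, and 4 mice developed it without ICN. The transcription factor Miz1 (gene Zbtb17) was wild-type or lacked its POZ domain (deltaPOZ), and p53 was wild-type (wt) or null (ko).

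The ICN groups with wild-type p53 were Miz1-wt, deltaPOZ-Lck and deltaPOZ-Vav, and the ICN groups without p53 were the same 3. Without ICN there were Miz1-wt and deltaPOZ-Vav mice, both p53-ko, so every comparison of ICN with no ICN lies within p53-null leukaemias. Lck and Vav are suffixes of the library titles that the labels do not explain, and ages, sexes and sampled organs are not given. The submitters' design text speaks of 2 mice per genotype, and the p-values therefore reflect variation from mouse to mouse. The RNA is from bulk tissue, so fewer cells of a type and less RNA per cell cannot be told apart.

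Cells obtain deoxynucleotides by reducing ribonucleotides, which ribonucleotide reductase does with its large subunit Rrm1 and its small subunit Rrm2, and by salvage of nucleosides that enter through transporters such as Slc29a1 and are phosphorylated by kinases such as Dck and Tk1. Samhd1 hydrolyses deoxynucleoside triphosphates and also the active triphosphate of cytarabine, Cda and Ada deaminate cytidine and adenosine nucleosides, Pnp splits purine nucleosides, and Nt5c2 dephosphorylates purine nucleotides. T lymphoblasts are known for their sensitivity to deoxynucleosides, and inherited loss of Ada or Pnp depletes T cells.

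Libraries held 36463524 to 68523196 gene counts, and the rank correlation of expression within replicate pairs was 0.908 to 0.957. Trp53 lay between 70.2 and 113.5 CPM (counts scaled to library size) in the 6 p53-wt libraries and between 7.33 and 30.6 in the 10 p53-ko libraries. Zbtb17 lay between 42.9 and 137.8 CPM in the 6 Miz1-wt and between 38.0 and 87.5 in the 10 deltaPOZ libraries, and a count over the whole gene does not check the loss of 1 domain. T cell markers were present in all libraries (summed CPM of 12 markers 2872 to 5846). By summed CPM, markers of neutrophils and erythroid cells separated the libraries by ICN. The summed CPM of 12 neutrophil markers was 57.2 to 9241 in the ICN libraries and 2.03 to 2.22 without ICN, with 2 to 5 of the 12 at 0 in each library without ICN. The sum of 12 erythroid markers was 6358 to 30200 with ICN and 361.4 to 1052 without. The sums of macrophage and dendritic cell markers overlapped, at 148.5 to 1576 with ICN and 132.9 to 348.9 without. Those of B cell, NK and cytotoxic cell, and endothelium and stroma markers overlapped too. By mean log2 CPM, NK and cytotoxic cell markers did separate, at 1.028 to 2.586 with ICN and -1.548 to 0.045 without.

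Pnp is the member without a row of its own. Its identifier in the annotation used, ENSMUSG00000115338, was not among the counted genes. A row under ENSMUSG00000021871 (chromosome 14, 50944517 to 50963136 on GRCm38) shares 718 of its 750 exon bases with Pnp, and 5 of its 6 exons lie inside exons of Pnp. It is called the Pnp locus row here and is kept out of all counts of members.

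The upstream sequences of the 3 members that differed between leukaemias with and without ICN (Samhd1, Cda and Rrm1), and of Rrm2 as the partner subunit of Rrm1, are shown first because both subunits work in 1 enzyme and Rrm1 alone of the pair passed the test. Each is the 250 bases before the RefSeq transcription start on GRCm38.p6, 5′ to 3′ on the gene's strand, with the CCAAT box (CCAAT, or ATTGG on the other strand) in capitals.
Samhd1, minus strand, chr2:157135097-157135346: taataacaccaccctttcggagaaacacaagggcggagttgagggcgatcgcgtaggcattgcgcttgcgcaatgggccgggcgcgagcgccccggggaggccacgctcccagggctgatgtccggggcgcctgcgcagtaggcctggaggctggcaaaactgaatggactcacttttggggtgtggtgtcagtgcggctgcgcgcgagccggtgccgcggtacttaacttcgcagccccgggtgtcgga
Cda, minus strand, chr4:138367956-138368205: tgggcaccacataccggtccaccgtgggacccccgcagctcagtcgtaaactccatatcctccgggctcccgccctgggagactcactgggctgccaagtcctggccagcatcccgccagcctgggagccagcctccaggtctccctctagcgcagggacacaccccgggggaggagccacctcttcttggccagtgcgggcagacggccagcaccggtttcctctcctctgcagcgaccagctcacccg
Rrm1, plus strand, chr7:102441445-102441694: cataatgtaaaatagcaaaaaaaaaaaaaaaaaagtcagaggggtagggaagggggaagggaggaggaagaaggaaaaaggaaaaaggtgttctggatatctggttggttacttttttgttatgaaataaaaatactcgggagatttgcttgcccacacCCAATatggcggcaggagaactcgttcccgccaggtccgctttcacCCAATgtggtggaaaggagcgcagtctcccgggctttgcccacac
Rrm2, plus strand, chr12:24708004-24708253: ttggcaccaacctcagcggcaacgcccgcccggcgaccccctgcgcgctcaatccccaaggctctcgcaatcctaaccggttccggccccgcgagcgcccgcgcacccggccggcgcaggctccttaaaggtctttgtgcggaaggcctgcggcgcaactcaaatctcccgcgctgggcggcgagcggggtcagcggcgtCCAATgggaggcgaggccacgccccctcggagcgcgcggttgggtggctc

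Rrm1 held 2 CCAAT boxes, whose first bases lie 91 and 45 bases upstream of the start, and Rrm2 held 1, at 50 bases upstream. Neither Samhd1 nor Cda held one. A CCAAT box stood in the 250-base window of 6 of the 10 members (Ada, Nt5c2, Pnp, Rrm1, Rrm2 and Slc29a1), and in 33.8% of all 32851 windows in the table. The CHR motif (TTTGAA or TTCAAA), known from cell cycle genes, stood in 4 of the 10 (Dck, Nt5c2, Pnp and Slc29a1) and in 16% of all windows. E2F sites (TTTCCCGC, TTTCGCGC, TTTGCCGC, TTTGGCGC and their reverse complements) stood in none of the 10 and in 1.9% of all windows. The core letters bound by RBPJ, the DNA-binding partner of ICN (TGGGAA or TTCCCA, a search added after the values were seen), stood in Nt5c2 and Slc29a1 only among the 10, and in 21.6% of all windows. Nt5c2 has 7 windows and Slc29a1 has 8 in the table, so they had more room for a match than the 1-window genes Samhd1, Cda, Rrm1 and Rrm2. A match is a run of letters and not a measured binding site.

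Levels differed widely among the members. Over the 12 ICN libraries, CPM per kilobase of exon had its highest median in Rrm2 (118.2, range 72.7 to 132.1), followed by Rrm1 (62.4, range 53.5 to 73.8), Dck (55.6, range 46.4 to 66.0) and Slc29a1 (52.0, range 44.5 to 63.8). Tk1 (median 23.5 CPM per kilobase), Ada (21.3) and Nt5c2 (13.7) formed a middle band, and Samhd1 (6.42, range 4.54 to 16.5) and Cda (0.68, range 0.0185 to 2.38) were lowest. Neighbours in this order had overlapping ranges except for Slc29a1 above Tk1 (highest 38.5) and Samhd1 above Cda. Exon length here is the union over all annotated transcripts, which lowers the value of a gene with long rare transcripts. Without ICN the order of the medians was Rrm2 (89.7), Dck (56.2), Slc29a1 (53.9), Ada (49.6), Rrm1 (39.3), Tk1 (19.5), Nt5c2 (9.37), Samhd1 (0.517) and Cda (0). Ada stood above Rrm1 by median in these 4 libraries and below it in the 12 ICN libraries.

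**Figure D1:**
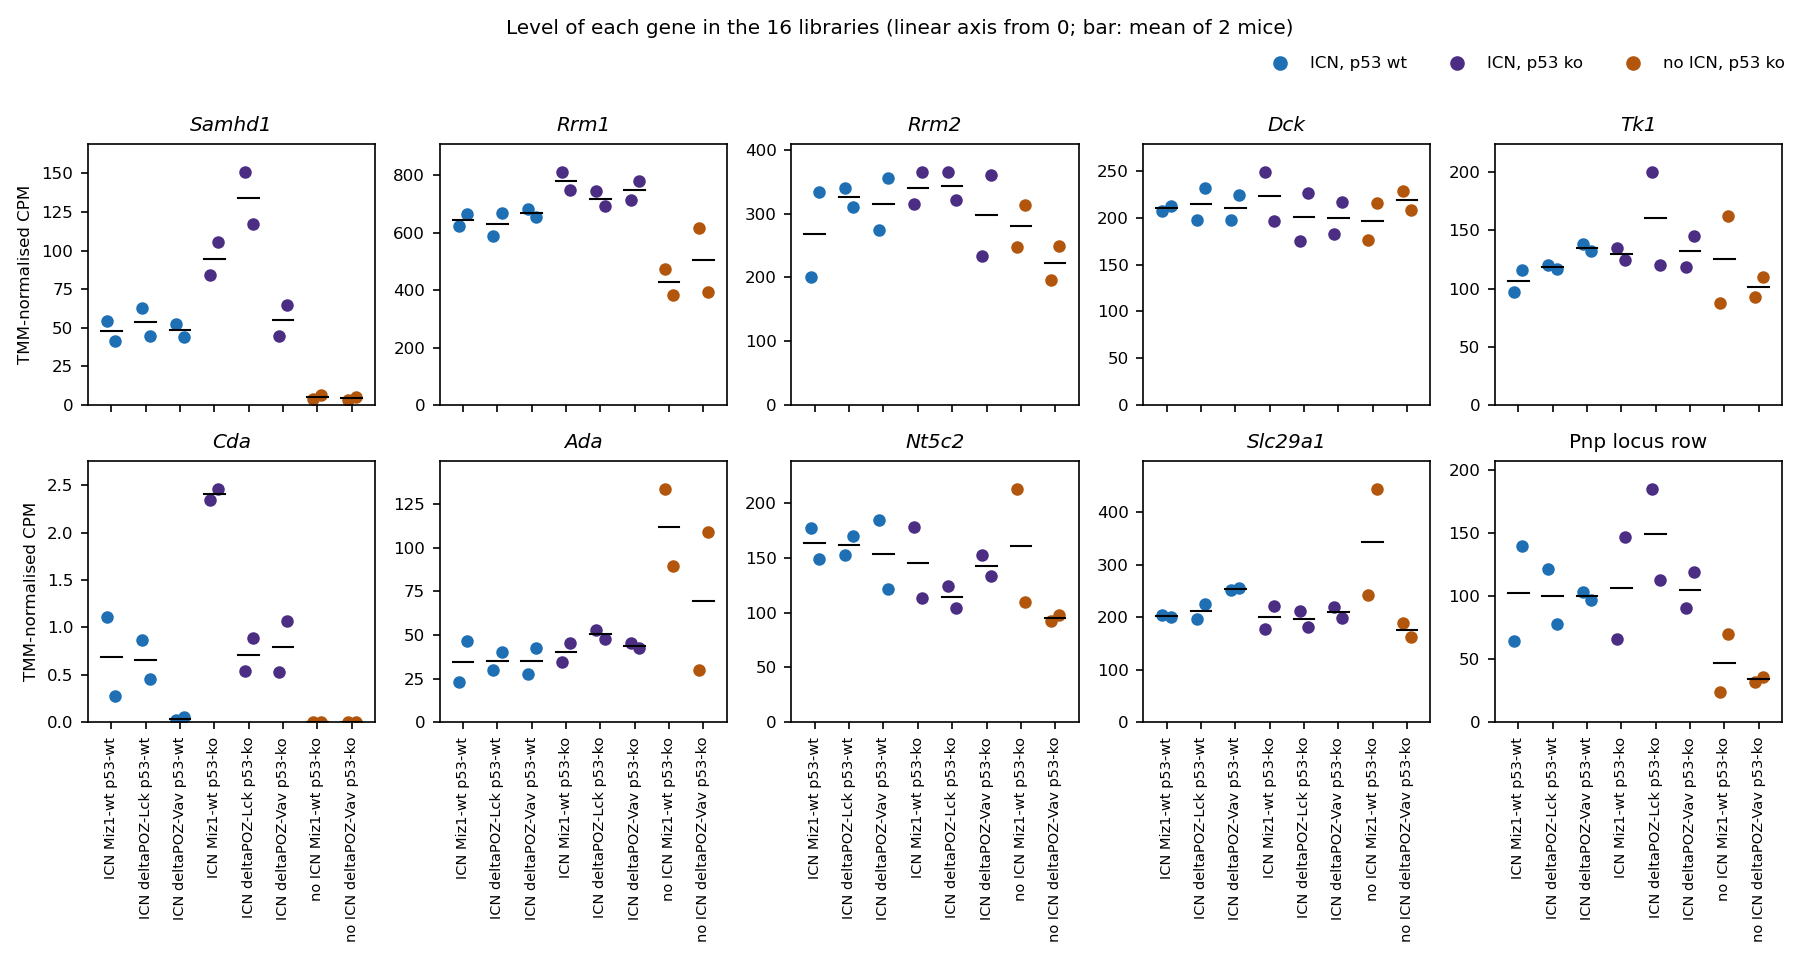
TMM-normalised CPM (vertical axes, linear from 0) of the 9 members and the Pnp locus row in the 16 libraries, by group, with a bar at the mean of 2 mice. Samhd1 and Cda are near or at 0 in the 4 libraries without ICN, Rrm1 is highest in the ICN p53-ko libraries, and Dck keeps to 175 to 249.4 CPM throughout.

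The comparison of ICN with no ICN asks how the members differ between p53-null T-ALL driven by activated Notch and p53-null T-ALL that arose without it. It set 4 ICN libraries (Miz1-wt and deltaPOZ-Vav) against 4 without ICN. Samhd1, Cda and Rrm1 were higher with ICN, and no member was lower: 3 of 9 passed the test (edgeR quasi-likelihood test, adjusted p under 0.05), against a background of 24% of the 17470 genes tested, 12.9% higher and 11.1% lower. Cda had 0 counts in each of the 4 libraries without ICN. It passed the filter on low counts through ICN libraries only, so it could only be called higher. Before adjustment, 4 members (with Ada) and 37.4% of all genes had a p under 0.05. The median log2 fold change of the 9 members was 0.22, also with Cda set at its lower bound, and their median absolute change was 0.35. Over all tested genes these were -0.015 and 0.531.

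Samhd1 (ENSMUSG00000027639, chromosome 2, 157097533 to 157135265, GRCm38) had 4.10 and 6.42 CPM in the Miz1-wt and 3.14 and 5.37 CPM in the deltaPOZ-Vav libraries without ICN. With ICN and without p53 it had 83.9 and 105.6 CPM in Miz1-wt and 44.5 and 64.9 CPM in deltaPOZ-Vav libraries. The groups did not overlap, and even the lowest ICN library was several-fold above the highest without ICN. Samhd1 was 3.92 higher on the log2 scale with ICN (SE 0.27, 95% interval 3.34 to 4.51), a 15.2-fold difference with an adjusted p of 6.77e-06. The size of the difference was not shown to depend on Miz1: the interaction was -0.48 (SE 0.47, adjusted p 0.821).

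Myeloid cells are known to express Samhd1, so marker levels are given beside it. With ICN, 12 of 12 neutrophil markers rose (median log2 fold change 10.3), and 3 of 12 macrophage and dendritic cell markers rose. NK and cytotoxic cell markers (6 of 9 tested), erythroid markers (11 of 12) and B cell markers (9 of 12) also rose. T cell markers had 2 of 12 higher and 3 lower, and endothelium and stroma markers had 3 of 11 higher and 2 lower. Over all genes 12.9% were higher and 11.1% lower. The summed macrophage markers were 376.2 and 354.3 CPM in the ICN Miz1-wt and 240.9 and 333.0 CPM in the ICN deltaPOZ-Vav p53-ko libraries, and the neutrophil markers 3892, 57.2, 567.4 and 1615 CPM in the same order. Without ICN the macrophage sums were 348.9 and 257.5 CPM in the Miz1-wt and 132.9 and 192.8 CPM in the deltaPOZ-Vav libraries.

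Over the 12 ICN libraries the log2 CPM of Samhd1 followed the mean log2 CPM of several marker lists, given as a description of libraries that share groups. Its Pearson correlation was 0.89 with macrophage and dendritic cell markers (Spearman 0.78), 0.84 with NK and cytotoxic markers (0.64), 0.629 with neutrophil markers (0.615) and -0.65 with T cell markers (-0.57). Without the 2 libraries farthest from the median of each list these Pearson values were 0.709, 0.758, 0.215 and -0.558. For the macrophage and neutrophil lists those 2 were the ICN deltaPOZ-Lck p53-ko libraries, on which the relation with the neutrophil list rests. A list of 24 cell cycle genes gave 0.645 (Spearman 0.587), and 0.534 without its 2 farthest libraries. Samhd1 was not alone in following the macrophage markers, since Tk1 had 0.718 (Spearman 0.79). The part of macrophages, NK cells and neutrophils in the level of Samhd1, and in its difference with ICN, was not tested.

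**Figure D2:**
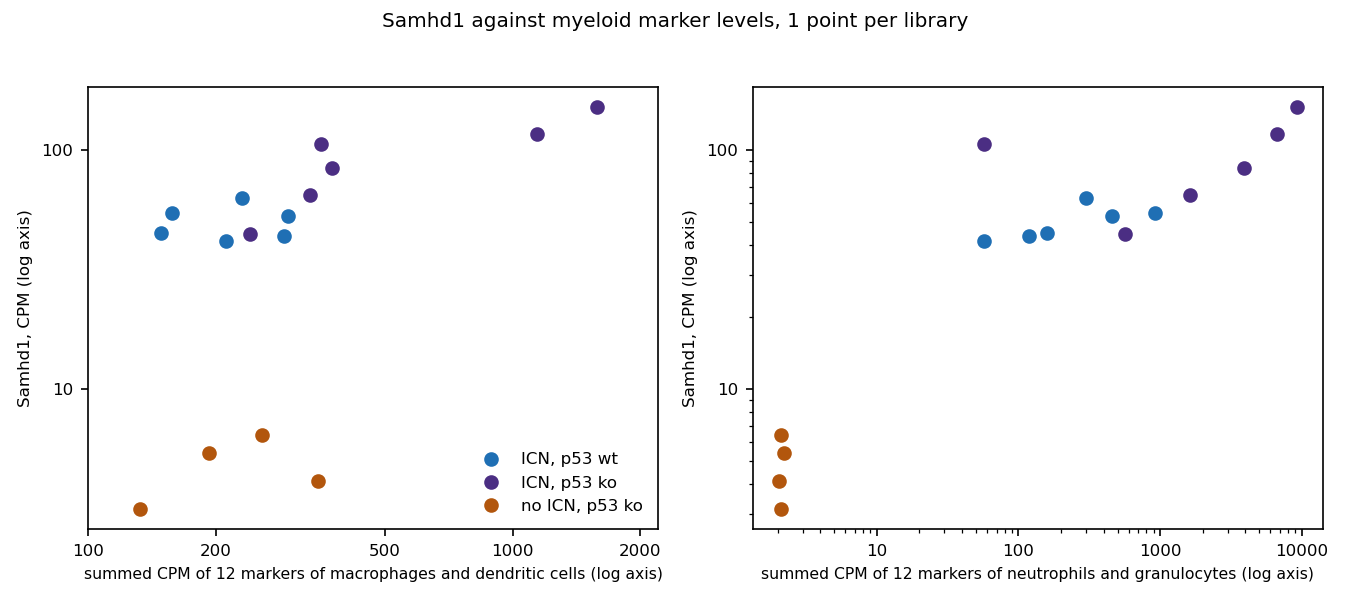
Samhd1 (vertical, CPM, log axis) against the summed CPM of 12 macrophage and dendritic cell markers (left) or 12 neutrophil and granulocyte markers (right; horizontal log axes), 1 point per library. The 4 libraries without ICN lie at 3.14 to 6.42 CPM of Samhd1, below all ICN libraries, and the highest points on both panels are the 2 ICN deltaPOZ-Lck p53-ko libraries.

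Cda (ENSMUSG00000028755, chromosome 4, 138338424 to 138367992), which inactivates cytidine analogues such as cytarabine, had 0 counts in each of the 4 libraries without ICN. The 4 ICN p53-ko libraries of the comparison held 84, 124, 29 and 51 counts, 288 in all. The groups did not overlap, though the gene is scarce everywhere. Against a floor of 3 counts over the 4 libraries without ICN, Cda was at least 107.1-fold higher, and the adjusted p was 0.00028. The floor covers counting error only.

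Rrm1 (ENSMUSG00000030978, chromosome 7, 102441695 to 102469771) had 473 and 383 CPM in the Miz1-wt and 617 and 392.4 CPM in the deltaPOZ-Vav libraries without ICN. With ICN it had 813 and 749 CPM in the Miz1-wt and 714.5 and 781 CPM in the deltaPOZ-Vav p53-ko libraries. All 4 ICN values lay above all 4 without ICN. The difference was 0.72 on the log2 scale (SE 0.16, 95% interval 0.37 to 1.07), or 1.65-fold, with an adjusted p of 0.0082. Fitted on these 8 libraries alone, the log2 fold change was 0.71 and the adjusted p 0.0681, which misses the threshold.

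Rrm2 (ENSMUSG00000020649, chromosome 12, 24708241 to 24714146) had 247.1 and 313 CPM in Miz1-wt libraries without ICN, and 223.3 ± 37.7 CPM (SD, n = 2; the lower at 197) in deltaPOZ-Vav libraries without ICN. With ICN it had 316 and 366 CPM in Miz1-wt and 234 and 360.2 CPM in deltaPOZ-Vav p53-ko libraries. The groups overlapped, and the log2 fold change of 0.35 (SE 0.20, 95% interval -0.10 to 0.79) had an adjusted p of 0.237. The interval of Rrm2 overlaps that of Rrm1, and a difference between the subunits was not tested. Of 24 cell cycle genes listed beside them, 2 rose with ICN (Mki67 and Ccne1) and none fell, with a median log2 fold change of 0.05. Over the 12 ICN libraries Rrm1 had a Pearson correlation of 0.828 with these genes (Spearman 0.888). Rrm2 had 0.544 (Spearman 0.483), and 0.114 without the 2 farthest libraries. With the erythroid markers Rrm1 had 0.311 (Spearman 0.182). Rrm2 had 0.868 with them (Spearman 0.832), and 0.729 without the 2 farthest. The part of cycling cells in the level of Rrm1 was not tested. The part of erythroid cells in the level of Rrm2 was not tested.

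The salvage kinases gave no call. Dck (ENSMUSG00000029366, chromosome 5, 88764996 to 88783281), which activates deoxycytidine, cytarabine and purine analogues, had 176 to 229 CPM without ICN and 183 to 249.4 CPM with ICN. Its log2 fold change was 0.03 with a 95% interval of -0.29 to 0.35 (adjusted p 0.919). Tk1 (ENSMUSG00000025574, chromosome 11, 117815526 to 117826092), the cytosolic thymidine kinase of cycling cells, had 87.9 to 162.4 CPM without ICN and 118.6 to 145.4 CPM with ICN, with a log2 fold change of 0.22 (95% interval -0.24 to 0.68, adjusted p 0.491). The range with ICN lay inside the range without it. Tk1 overlaps exons of Afmid on the opposite strand, and reads of overlapping genes cannot be told apart without a known strand setting.

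Ada (ENSMUSG00000017697, chromosome 2, 163726584 to 163750239), the deaminase that clears deoxyadenosine and the target of pentostatin, had 133.6 and 89.8 CPM in the Miz1-wt and 29.8 and 108.7 CPM in the deltaPOZ-Vav libraries without ICN. With ICN it had 34.7 and 45.3 CPM in the Miz1-wt and 45.3 and 42.6 CPM in the deltaPOZ-Vav p53-ko libraries. Of the 4 libraries without ICN, 3 were above all ICN libraries and 1, the first deltaPOZ-Vav library, was below all of them. Ada had a log2 fold change of -1.07 (SE 0.36, 95% interval -1.86 to -0.27) and an adjusted p of 0.053, which narrowly misses the threshold. Ada was called in 1 of the 8 fits that left out 1 library: -1.43 with an adjusted p of 0.00521 without the first deltaPOZ-Vav library lacking ICN, against -0.45 and 0.29 without the second. DESeq2 (adjusted p 0.0226) and edgeR without a filter on low counts (0.000146) also called Ada lower with all libraries.

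The Pnp locus row had 24.4 and 70.2 CPM in the Miz1-wt and 31.9 and 36.2 CPM in the deltaPOZ-Vav libraries without ICN. With ICN it had 66.0 and 146.7 CPM in the Miz1-wt and 90.6 and 119.4 CPM in the deltaPOZ-Vav p53-ko libraries. The groups overlapped at the lowest ICN library. This row had a log2 fold change of 1.40 (SE 0.38, 95% interval 0.57 to 2.23, adjusted p 0.0218), and it kept its call in 3 of the 8 fits that left out 1 library, with adjusted p of 0.00879 to 0.0868. The losing fits were those without either deltaPOZ-Vav library lacking ICN (0.0564 and 0.0569), the first Miz1-wt library lacking ICN (0.0647), the second ICN deltaPOZ-Vav (0.0727) and the second ICN Miz1-wt p53-ko library (0.0868). The fit on the 8 libraries alone lost it too (0.0514). Over the 12 ICN libraries the row had a Pearson correlation of 0.71 with the erythroid markers (Spearman 0.825; Pearson 0.589 without the 2 farthest libraries), which rose with ICN. Pnp2, a close paralog whose row (50955992 to 50964749) lies within the annotated span of Pnp and shares no exon bases with it, rose from 0.025 to 0.275 CPM without ICN to 6.20 to 17.7 CPM with ICN (log2 fold change 6.38, SE 0.78, adjusted p 0.000316). Reads shared by such close copies do not map uniquely, so both rows are uncertain.

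Nt5c2 (ENSMUSG00000025041, chromosome 19, 46883317 to 47015153), known for activating mutations in relapsed leukaemia that confer resistance to thiopurines, had 92.6 to 212.9 CPM without ICN and 113 to 178 CPM with ICN. Its log2 fold change was 0.22 (95% interval -0.28 to 0.72, adjusted p 0.518), and the ranges overlapped. Slc29a1 (ENSMUSG00000023942, chromosome 17, 45585200 to 45599606), the equilibrative transporter through which cytarabine and other nucleosides enter cells, had 243 and 444 CPM in the Miz1-wt and 189 and 162 CPM in the deltaPOZ-Vav libraries without ICN. With ICN it had 178 to 222 CPM in the p53-ko libraries. Slc29a1 had a log2 fold change of -0.26 (95% interval -0.66 to 0.13, adjusted p 0.317), and it was called in 1 of the 8 fits that left out 1 library. It was -0.48 (adjusted p 0.0487) without the first Miz1-wt library lacking ICN and -0.06 (adjusted p 0.826) without the second. Nt5c2 shares exon bases with Ina, and Slc29a1 with Gm17080, both on the opposite strand.

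**Figure D3:**
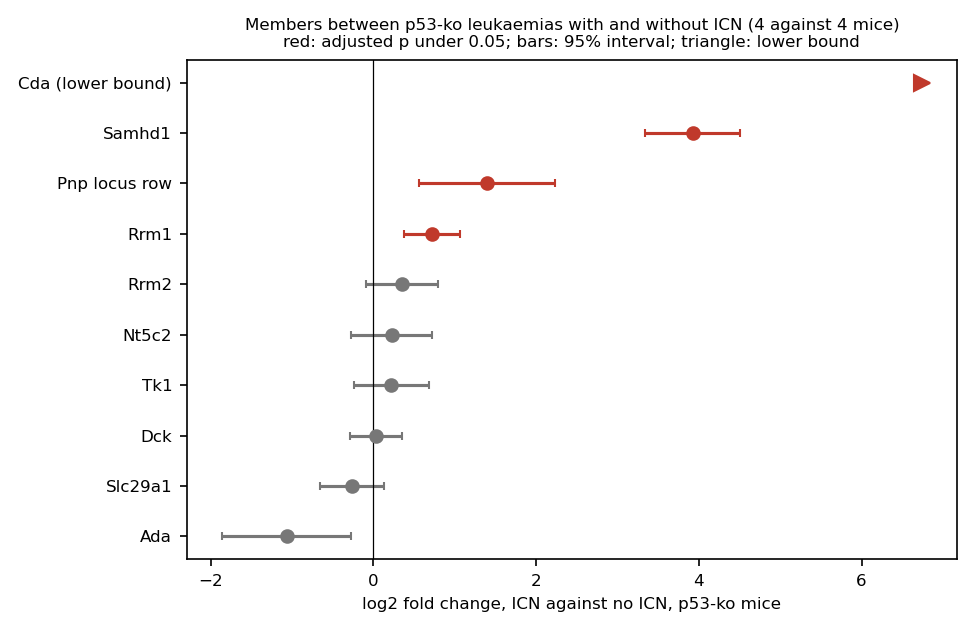
Log2 fold change between 4 ICN and 4 no-ICN p53-ko libraries (horizontal) for the 9 members and the Pnp locus row, with 95% intervals. Red marks an adjusted p under 0.05. The triangle is the lower bound of Cda, 6.74, from the floor of 3 counts, drawn in place of its fitted value. Samhd1 at 3.92 stands apart from the other members drawn at a fitted value.

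The wider pathway was described by 78 other genes in 7 lists (transport, salvage kinases, deaminases and phosphorylases, nucleotidases, ribonucleotide reductase with thymidylate and folate, and both de novo routes), of which 76 could be tested. With ICN, 13 rose and 6 fell, near the 24% of all genes called (12.9% higher and 11.1% lower), and the median log2 fold change was -0.02 (absolute 0.35). Deaminases and phosphorylases had 5 of 11 tested genes higher and none lower, nucleotidases 4 of 12 higher and 2 lower, and transporters 3 of 8 higher and none lower. Of 15 other salvage kinases and phosphoribosyltransferases 1 rose and 1 fell. Ribonucleotide reductase, thymidylate and folate genes had 2 of 12 lower, purine synthesis 1 of 13 lower, and none of these rose. None of the 5 pyrimidine synthesis genes passed the test.

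The 4 rises with the lowest adjusted p were all in the list of deaminases and phosphorylases. Gda, the guanine deaminase, rose from 2.55 to 4.48 CPM without ICN to 61.0 to 482 CPM with ICN (log2 fold change 5.82, SE 0.56, adjusted p 6.68e-05). Ampd1 rose from 1.84 to 8.12 CPM to 12.4 to 32.9 CPM (log2 fold change 2.46, adjusted p 0.000629), and Ampd3 from 1.53 to 9.75 CPM to 16.04 to 47.7 CPM (3.32, adjusted p 0.000641). Both encode AMP deaminases, and Ampd3 is known as the erythrocyte form. With Pnp2, these 4 genes were named for their low adjusted p, so their lack of overlap between the groups adds no evidence. They moved with ICN as the erythroid (11 of 12 called higher) and neutrophil markers (12 of 12) did. B cell markers (9 of 12) and NK and cytotoxic cell markers (6 of 9 tested) moved the same way. The part of those cells in the result was not tested.

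Among the genes that fell, Rrm2b, the p53-inducible small subunit of ribonucleotide reductase that can pair with Rrm1 in place of Rrm2, went from 21.6 to 32.9 CPM without ICN to 12.7 to 17.8 CPM with ICN (log2 fold change -0.90, SE 0.23, adjusted p 0.0179). Both groups lack p53. Without the first ICN deltaPOZ-Vav p53-ko library the adjusted p of Rrm2b was 0.0871, and in the fit on the 8 libraries alone it was 0.0633. Nt5c3b, a nucleotidase, went from 74.3 to 115.2 CPM to 35.1 to 71.6 CPM (-0.88, adjusted p 0.00859). Slc46a1, a folate transporter, had 0.916 to 2.68 CPM without and 0.14 to 0.618 CPM with ICN (-2.14, adjusted p 0.0144), and its adjusted p was 0.0645 without the second ICN deltaPOZ-Vav library and 0.0556 on the 8 libraries alone. Adssl1, an adenylosuccinate synthase, fell by 1.36 on the log2 scale (adjusted p 0.0215), with 7.18 to 18.7 CPM without and 4.57 to 5.91 CPM with ICN, and it kept its call in 2 of the 8 fits that left out 1 library. The fits without either ICN Miz1-wt library (0.0541 and 0.0522), either ICN deltaPOZ-Vav library (0.0853 and 0.0538), or the second Miz1-wt (0.0654) or second deltaPOZ-Vav library lacking ICN (0.0874) lost the call of Adssl1, as did the 8 libraries alone (0.084).

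**Figure D4:**
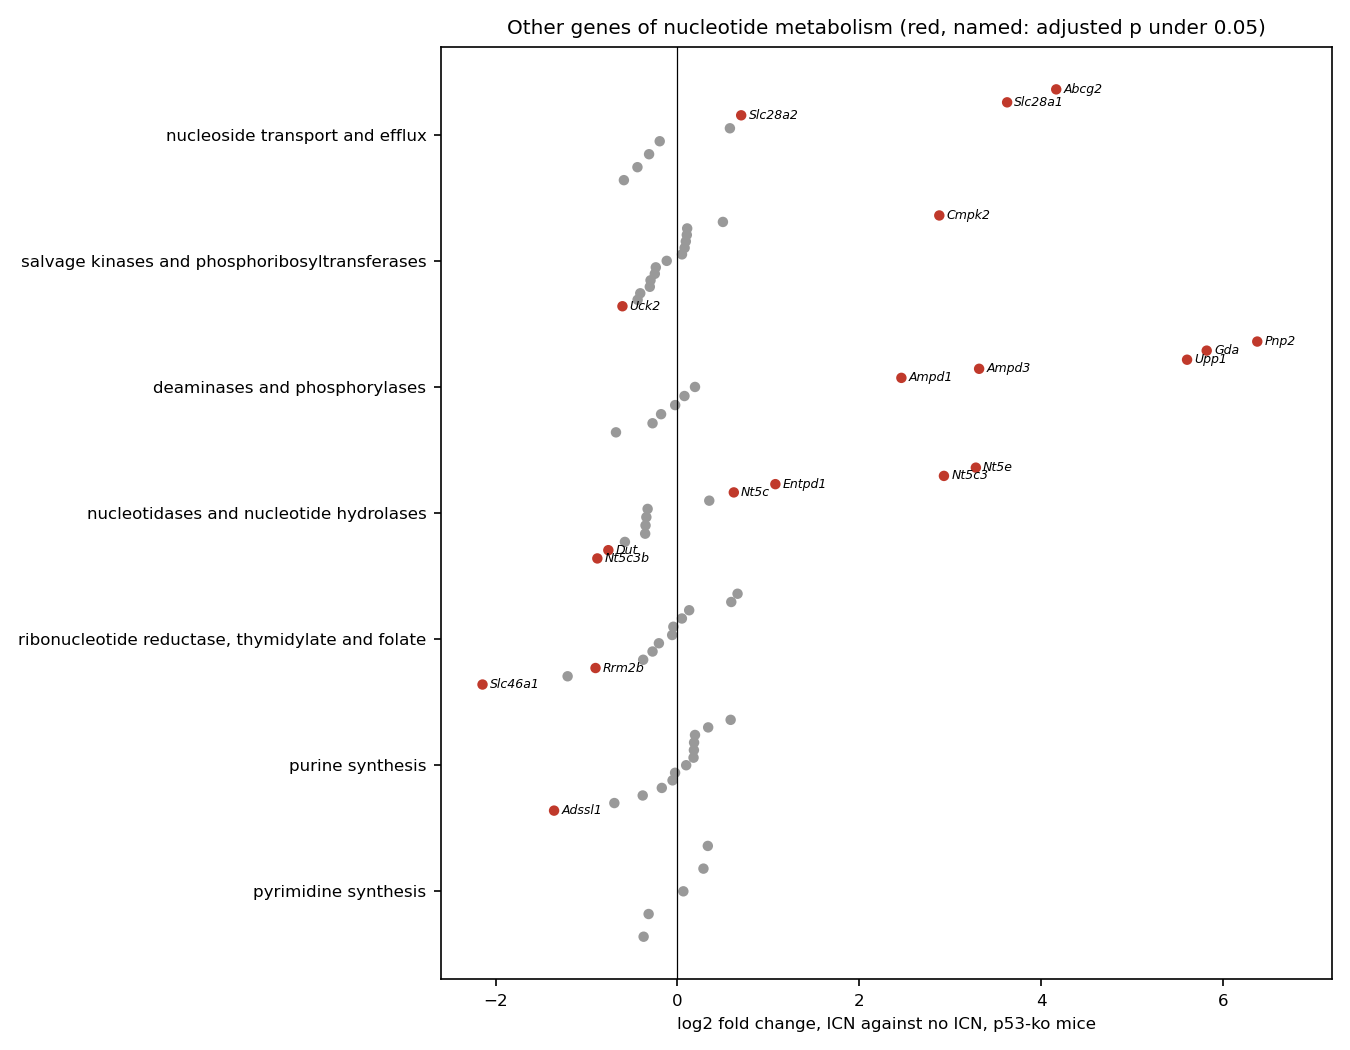
Fitted log2 fold change with ICN (horizontal) of the 76 tested other genes of nucleotide metabolism, by list, 1 point per gene, with called genes in red and named. The 13 red points to the right of 0 lie in the lists of transport, salvage kinases, deaminases and phosphorylases, and nucleotidases, and the 6 to the left include Rrm2b.

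The comparison of p53 genotypes asks how the loss of p53 bears on the members within ICN-induced leukaemia, with 6 p53-ko against 6 p53-wt libraries. It shares the ICN p53-ko libraries with the comparison above. None of the 9 members passed edgeR's test, against a background of 0.195% of all genes (0.12% higher and 0.0744% lower). Samhd1 and Cda, 2 of the 9, had an unadjusted p under 0.05, as did 15.5% of all genes. DESeq2 called both, as did edgeR without a filter on low counts, in fits that called 6.29% and 5.28% of all genes. The members' median log2 fold change was 0.21, against 0.004 over all genes.

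Samhd1 had 54.6 and 41.5 CPM in Miz1-wt, 62.9 and 44.7 CPM in deltaPOZ-Lck, and 52.6 and 43.8 CPM in deltaPOZ-Vav libraries with wild-type p53. Without p53 it had 83.9 and 105.6, 151 and 117, and 44.5 and 64.9 CPM in the same order. The p53-ko Miz1-wt and Lck libraries and the second p53-ko Vav library lay above all p53-wt libraries. The first p53-ko Vav library did not. The log2 fold change was 0.83 (SE 0.19, 95% interval 0.40 to 1.25) with an adjusted p of 0.0932 by edgeR and 0.00459 by DESeq2. The 2 Lck p53-ko libraries also had the highest macrophage marker sums, 1576 and 1144 CPM against 148.5 to 376.2 in the other ICN libraries, and the highest neutrophil sums, 9241 and 6644 CPM. With both Lck groups left out of the contrast, an alternative chosen after seeing the data, the log2 fold change of Samhd1 was 0.58 (SE 0.24, adjusted p 0.811). The Lck groups had the widest gap between p53 genotypes, with means of 53.8 and 134.1 CPM. A lower value was thus fixed by the choice and tests no cause. The adjusted p also depends on the other genes, of which 0.0343% were called in that contrast, against 0.195% with the Lck groups. The medians over the 12 macrophage and 12 neutrophil markers between p53 genotypes were 0.96 and 3.17 on the log2 scale, with none of the 24 called. The part of these cells in the p53 difference of Samhd1 was not tested.

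Cda counts with wild-type p53 were 57 and 15 in Miz1-wt, 44 and 20 in deltaPOZ-Lck and 1 and 3 in deltaPOZ-Vav libraries. Without p53 they were 84 and 124, 24 and 44, and 29 and 51. The Lck groups overlapped, and in the Miz1-wt and Vav groups both p53-ko libraries were above both p53-wt libraries. The log2 fold change was 2.10 (SE 0.47, 95% interval 1.04 to 3.16, adjusted p 0.1 by edgeR and 0.0047 by DESeq2). Leaving out each library in turn gave 1.855 to 2.519, with no call by edgeR. With both Lck groups left out of the contrast, Cda had a log2 fold change of 3.09 (SE 0.60, adjusted p 0.325).

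Rrm1 was the 1 member whose 6 p53-ko libraries (693 to 813 CPM) all lay above the 6 p53-wt libraries (589.6 to 681 CPM). Its log2 fold change was small, 0.21 (SE 0.13, 95% interval -0.07 to 0.49, adjusted p 0.459). In edgeR's test Rrm1 had an unadjusted p of 0.126, while 15.5% of all genes had one under 0.05. The share of all genes whose libraries separate in this way was not counted. The separation is therefore not shown to be particular to Rrm1. The 24 cell cycle genes had a median log2 fold change of 0.29 with p53 loss, with 10 at an unadjusted p under 0.05 and none called, and their summed CPM was 10750 to 12580 without p53 and 8891 to 10580 with it. Tk1 (0.23, 95% interval -0.15 to 0.61), Rrm2 (0.11, -0.25 to 0.48) and Ada (0.35, -0.30 to 0.99) had intervals of the log2 fold change that include 0. Dck (-0.03, -0.29 to 0.23), Nt5c2 (-0.25, -0.66 to 0.15), Slc29a1 (-0.13, -0.46 to 0.19) and the Pnp locus row (0.23, -0.43 to 0.90) did too. Of the 76 other pathway genes edgeR called none, 12 had an unadjusted p below 0.05, and by DESeq2 5 were called.

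**Figure D5:**
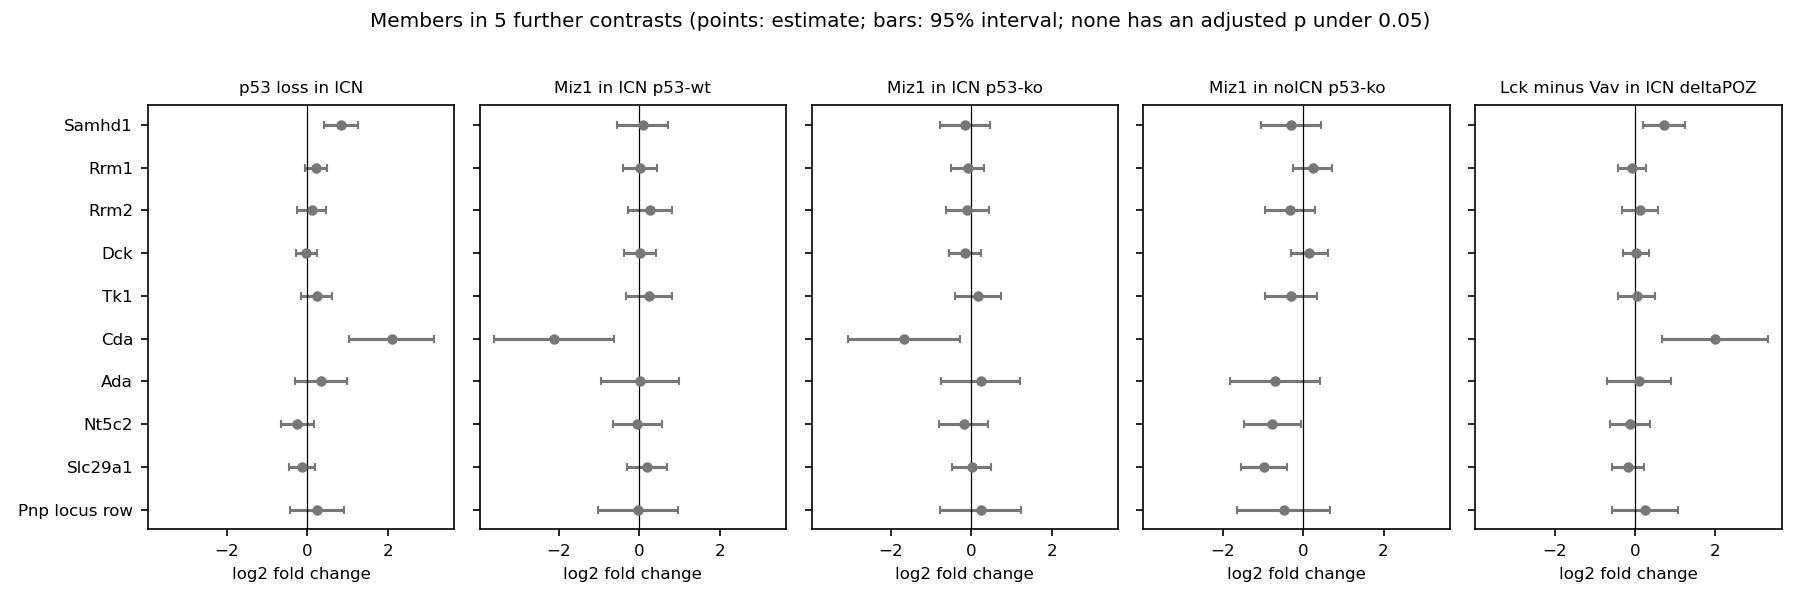
Log2 fold changes (horizontal, with 95% intervals) of the 9 members and the Pnp locus row for p53 loss, Miz1 deltaPOZ in 3 backgrounds, and Lck against Vav. No point has an adjusted p under 0.05. Cda has no estimate without ICN because all 4 libraries are at 0.

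The comparison of Miz1 genotypes, the question in the title of the study, was made within each background. Where p53 was wild-type and ICN present (4 deltaPOZ and 2 Miz1-wt libraries), edgeR called none of the 9 members and 0% of all genes, with 1 member, Cda, at an unadjusted p under 0.05 (1.87% of all genes). In ICN leukaemias without p53 it again called none (background 0.00572%), with 1 member, again Cda, at an unadjusted p under 0.05 (3.78% of all genes). DESeq2 called no member in either. Cda was 2.41 ± 0.08 CPM (SD, n = 2) in Miz1-wt and 0.755 ± 0.265 CPM (SD, n = 4) in deltaPOZ leukaemias without p53, with no overlap, a log2 fold change of -1.67 (95% interval -3.06 to -0.28) and an adjusted p of 1. With wild-type p53 its log2 fold change was -2.12 (95% interval -3.62 to -0.62, adjusted p 1), and the groups overlapped. Without the first of its Miz1-wt libraries that value was -0.82, and the other fits that left out 1 library reached -2.81. With wild-type p53 the mean of Cda was 0.69 CPM in Miz1-wt, 0.66 in deltaPOZ-Lck and 0.035 in deltaPOZ-Vav libraries. The Vav libraries held 1 and 3 counts. The estimate thus rests on the Vav group near the floor, while the Lck mean was close to that of Miz1-wt.

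The other members had small estimated differences between Miz1 genotypes in ICN leukaemias. In the p53-wt background the log2 fold changes of Samhd1, Dck, Rrm1, Ada and Nt5c2 lay between -0.05 (Nt5c2) and 0.08 (Samhd1), and those of Slc29a1, Tk1 and Rrm2 were 0.19, 0.25 and 0.26. Tk1 did not overlap there (116.4 to 138.1 CPM in deltaPOZ and 97.0 and 116.1 CPM in Miz1-wt), with an adjusted p of 1. In the p53-ko background they lay between -0.19 (Nt5c2) and 0.23 (Ada). The intervals leave room for changes of moderate size: that of Samhd1 in the p53-ko background ran from -0.77 to 0.48, and that of Ada from -0.74 to 1.21.

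Without ICN, 2 deltaPOZ-Vav libraries were set against 2 Miz1-wt libraries. edgeR called none of the 9 members and 0% of all genes, and DESeq2 called 1 member and 1.47% of all genes. At an unadjusted p under 0.05 there were 2 members (7.68% of all genes), Slc29a1 and Nt5c2, and both were lower in deltaPOZ leukaemias. Slc29a1 had 243 and 444 CPM in Miz1-wt and 189 and 162 CPM in deltaPOZ-Vav libraries. The groups did not overlap, and the Miz1-wt libraries differed more from each other than from the deltaPOZ libraries at their nearest. The log2 fold change was -0.97 (SE 0.26, 95% interval -1.53 to -0.41) with an adjusted p of 0.357 by edgeR, 0.0491 by DESeq2 and 0.042 by edgeR without a filter, which called 2.48% of all genes. Without the second Miz1-wt library it was -0.49, and leaving out each of the 4 libraries in turn gave adjusted p of 0.107 to 0.499. In ICN p53-ko leukaemias the log2 fold change of Slc29a1 was 0.02 over Lck and Vav. Its interaction of Miz1 with ICN, taken over Miz1-wt and Vav, was 1.03 (SE 0.36, 95% interval 0.24 to 1.83), with an unadjusted p of 0.0151 and an adjusted p of 0.702, so a difference between backgrounds was not shown.

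Nt5c2 had 212.9 and 109.4 CPM in Miz1-wt and 92.6 and 97.6 CPM in deltaPOZ-Vav libraries without ICN. The groups did not overlap, and 1 Miz1-wt library carried most of the distance. Nt5c2 had a log2 fold change of -0.76 (SE 0.32, 95% interval -1.47 to -0.05, adjusted p 0.613). Without the first Miz1-wt library the value of Nt5c2 was -0.19, and without the second -1.18. Ada (-0.69, 95% interval -1.81 to 0.43) was -0.06 without the first and -1.89 without the second deltaPOZ-Vav library. Ada and the others had intervals that include 0, and Cda was at 0 in all 4 libraries. Averaged over the 3 backgrounds, edgeR and DESeq2 called none of the 9 members (background 0.0172% by edgeR) and none had an unadjusted p under 0.05 (4.92% of all genes). The lowest adjusted p was 1, and the averages ran from -0.33 (Nt5c2, SE 0.17) to 0.05 (Rrm1, SE 0.12) among the members with an estimate.

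Lck and Vav leukaemias with ICN were compared across both p53 genotypes, 4 against 4 libraries. edgeR called none of the 9 members and 0% of all genes, DESeq2 called no member, and 2 members, Samhd1 and Cda, had an unadjusted p under 0.05 (3.15% of all genes). Samhd1 was 62.9, 44.7, 151 and 117 CPM in Lck and 52.6, 43.8, 44.5 and 64.9 CPM in Vav libraries, with a log2 fold change of 0.73 (SE 0.24, 95% interval 0.21 to 1.24, adjusted p 1). Both values above 100 are the p53-ko libraries with the high myeloid marker sums. Cda had 44, 20, 24 and 44 counts in Lck and 1, 3, 29 and 51 in Vav libraries, a log2 fold change of 1.98 (SE 0.59, adjusted p 1). Between p53 backgrounds the effect of Miz1 was not shown to differ for any member (0% of all genes called, 2.6% at an unadjusted p under 0.05, none of them a member). The interaction of Miz1 with ICN had 0% of genes called, and of the members Slc29a1 alone had an unadjusted p under 0.05 (6.99% of all genes).

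Across the 12 ICN libraries, the protein-coding genes whose log2 CPM was most like that of a member were listed from 11275 genes by Pearson correlation, as a description of libraries that share groups and depth. For Samhd1 these were Ifitm3, an interferon-induced membrane protein (0.98), Lfng, a glycosyltransferase that modifies Notch (0.97), and Il18r1, an interleukin receptor chain (0.96). For Rrm1 they included Fbxo45 (0.97) and Bag1 (0.93). For Rrm2 they were Nxpe4 (0.94), Mboat2 (0.90) and Klhl25 (0.89). Dck was most like Xpr1 (0.93), Tk1 most like Hnrnpr (0.90), Ada most like Tom1 (0.91), Nt5c2 most like Aggf1 (0.96), Slc29a1 most like Thyn1 (0.91), Cda most like Atp1b2 (0.90) and the Pnp locus row most like Ifrd2 (0.98). Values this high are selected from many genes and carry no test.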

How the data were processed

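The deposited values are raw counts per gene for 16 libraries of mouse T-ALL, made by the authors. Per the submitters' processing notes, reads were processed on the build mm10 (GRCm38) with tools that include TopHat2 2.0.10 and HTSeq. No annotation release or strand setting is stated. The totals at the end of each table name no gene and were left out: alignments that were not unique took 45.8% to 63.7% of a library and reads outside genes 14.2% to 21.5%. Gene names and coordinates came from GENCODE M21, which held 40254 of the 41214 identifiers.

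Groups followed the labels, and replicate numbers only name libraries. Counts were fitted with edgeR 4.0.16 in R 4.3.3 (TMM, filterByExpr, quasi-likelihood F test, 1 mean per group over 8 groups, 8 residual degrees of freedom). P-values were adjusted over 17470 genes by the Benjamini-Hochberg method, with a threshold of 0.05. CPM are TMM-normalised, with a prior count of 2 on the log2 scale. The SE is the size of the log2 fold change divided by the square root of F. The comparisons were ICN against none, p53-ko against p53-wt, deltaPOZ against Miz1-wt in 3 backgrounds and on average, Lck against Vav, and 2 interactions.

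The genes and lists were chosen with earlier results of these data known. Of the pathway genes beside the 10, up to 4 rises and 4 falls with the lowest adjusted p were to be named per comparison, and other names were chosen after the values were seen. In counts simulated for the ICN comparison (17470 genes), 31% of 100 genes changed 2-fold and 80% of 100 changed 4-fold were called. No other gene was changed, far fewer than the 24% called in the data, and genes of low level were not among those changed. These shares therefore do not give the power of that comparison. Alternatives were DESeq2 1.42.0, RLE scaling, no filter, robust dispersion, the libraries of a comparison alone, leaving out each library, and the p53 contrast without the Lck groups.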

Additional observations from a re-analysis of the deposited data

How the results depend on the processing

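No result changed direction while called. In edgeR's fit on the 8 libraries of the ICN comparison alone, Rrm1 lost its call (adjusted p 0.0681). The 3 members called with ICN stayed at 3 to 4 in the 8 fits that left out 1 library. The 19 other pathway genes called went to 10 when only the 8 libraries of the comparison were fitted, and to between 15 and 24 in the fits that left out 1 library. For p53 loss, edgeR called 0 members and 0 other pathway genes, DESeq2 called 2 and 5, edgeR without a filter on low counts called 2 and 5, and leaving out 1 library gave 0 members and 0 to 1 other genes. For Miz1 without ICN, edgeR called 0 of each, DESeq2 called 1 member, no filter gave 1 member and 2 other genes, and leaving out 1 library gave 0 to 1 other genes. Without a filter, 1 other pathway gene was called for Miz1 in ICN p53-ko and 4 for the interaction of Miz1 with ICN. The cause of these differences was not tested. Over the members, the Pnp locus row and the 8 named pathway genes in the ICN comparison, 207 values kept their direction and call under the alternatives, 18 lost the call, 4 gained one and 5 uncalled values crossed 0. The Miz1 average uses all groups, so it has no smaller set of libraries. Over all genes, the ICN comparison had 4194 calls in the fit reported, 5333 by DESeq2, 5168 without a filter, 2360 in its own libraries, and 2524 to 4643 with 1 library left out. The p53 comparison had 34, 1065, 1588, 149, and 2 to 132. Miz1 without ICN had 0 calls, 241 by DESeq2, 746 without a filter and 0 to 108 with 1 library left out, and the Miz1 average had 3, 134, 502 and 0 to 20. Miz1 in ICN had 1, 127 and 464 calls without p53 and 0, 16 and 211 with it, and Lck against Vav had 0, 22 and 277. RLE scaling moved the median of all genes by at most 0.011 on the log2 scale. No paired analysis was possible because replicate numbers follow accession order and pair no mice. Cda held 0 to 124 counts a library, which limits the precision of its values.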
